A study of Mus musculus with 6 samples.

Results

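The 31 genes described here encode enzymes, regulators and carriers of cholesterol metabolism in the mPFC (medial prefrontal cortex) of mice with a *Shank3* transgene (TG) that overexpress this synaptic scaffold. They were taken by symbol from the normalized count table, which holds 18254 genes. Of these, 16714 genes were abundant enough to test, averaging 5 or more normalized counts over the libraries, and all 31 cholesterol genes were among them. The list covers 8 enzymes of the mevalonate and isoprenoid steps, 11 enzymes from squalene to cholesterol, 5 regulators of the sterol response and 7 genes for transport, storage, export and turnover, and it does not hold every enzyme of the route.

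RNA sequencing compared adult male *Shank3* TG mice with WT littermates, both on a C57BL/6J background and 10 to 12 weeks old. The TG mice carry an EGFP-Shank3 transgene, and WT mice carry none. Each genotype had 3 libraries, numbered 1 to 3, and each library was made from the pooled mPFC of a pair of mice of the same genotype, so a library shows the average of its pair. Library sums of normalized counts ran from 28363967 to 29447717. Normalized counts of *Shank3* were 17470, 19003 and 16310 in TG-1, TG-2 and TG-3 and 8374, 8173 and 6791 in WT-1, WT-2 and WT-3, a fold of 2.27. The adjusted p of *Shank3* was 0.0643 in the limma fit with genotype alone and 0.00044 when the replicate number was added as a block, so the fit with genotype alone, the main one here, did not call even the gene that the transgene carries.

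Cholesterol is made from acetyl-CoA through mevalonate, isoprenoid diphosphates, squalene and lanosterol. SREBP transcription factors, held in the endoplasmic reticulum by SCAP and INSIG proteins while sterols are plentiful, switch on most genes of the route. Brain cholesterol is made locally because lipoproteins of the blood do not cross the blood-brain barrier, much of it lies in the myelin that oligodendrocytes wrap around axons, astrocytes supply neurons, and neurons dispose of the excess by hydroxylating it.

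CACNCCAC is part of the letters searched for the sterol regulatory element, the sequence that SREBP proteins bind. The promoters of 3 cholesterol genes are shown because only they, among the 25 genes matched in the RefSeq promoter table, held it. Each is 300 bases on GRCm38.p6, from 250 bases before the annotated start to 50 after it, read 5′ to 3′ on the strand of the gene. Capitals mark the letters CACNCCAC, or TCACNCCAC in *Hmgcs1*, and CCAAT, on either strand.
Acat2, chr17:12960676-12960975, minus strand: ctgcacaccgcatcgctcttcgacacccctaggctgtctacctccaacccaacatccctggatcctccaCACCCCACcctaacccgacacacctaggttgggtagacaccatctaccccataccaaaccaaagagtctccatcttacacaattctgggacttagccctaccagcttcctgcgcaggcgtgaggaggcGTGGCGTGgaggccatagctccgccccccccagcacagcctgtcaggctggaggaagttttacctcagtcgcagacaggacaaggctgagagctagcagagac
Hmgcs1, chr13:119690101-119690400, plus strand: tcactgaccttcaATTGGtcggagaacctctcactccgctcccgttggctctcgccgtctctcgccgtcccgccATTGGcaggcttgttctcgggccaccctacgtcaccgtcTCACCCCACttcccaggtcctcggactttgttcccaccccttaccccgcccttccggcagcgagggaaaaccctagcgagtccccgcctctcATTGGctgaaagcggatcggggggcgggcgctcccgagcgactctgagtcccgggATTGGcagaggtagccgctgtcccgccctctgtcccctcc
Insig1, chr5:28071162-28071461, plus strand: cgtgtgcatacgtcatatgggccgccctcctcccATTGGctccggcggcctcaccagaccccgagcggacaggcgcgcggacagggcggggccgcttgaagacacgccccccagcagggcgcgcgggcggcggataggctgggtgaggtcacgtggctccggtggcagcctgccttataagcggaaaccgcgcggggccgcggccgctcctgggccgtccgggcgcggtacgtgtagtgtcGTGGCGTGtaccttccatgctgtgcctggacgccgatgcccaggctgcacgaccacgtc

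The longer letters, TCACNCCAC, were found in 1 of the 25 matched genes, *Hmgcs1*, where they begin 137 bases before the start, and in 1.44% of the 27025 genes in the table. The shorter letters CACNCCAC, which lie inside the longer ones, were found in 3 of 25 genes and in 7.12% of all genes, or 7.64% of those tested here. CCAAT, bound by the NF-Y complex that acts beside SREBP at sterol genes, was found in 22 of 25 genes, all but *Acat2*, *Scap* and *Abca1*, and in 41.1% of all genes, or 42.4% of those tested here. GGGCGG, the GC box bound by Sp1, was found in 23 of 25 genes and in 64.1% of the tested genes with a promoter. The *Hmgcs1* promoter held CCAAT at 4 places, each as ATTGG on the gene's strand. These matches describe letters within the windows and say nothing of binding. *Sqle*, *Fdps*, *Fdft1*, *Abcg1*, *Npc1* and *Stard4* were not matched.

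To ask whether transcripts for cholesterol synthesis and handling differed between the genotypes, the 31 genes were read from the fit over all genes. None of the 31 was called at an adjusted p under 0.05 by limma, and none had an unadjusted p under 0.05. Over all 16714 genes the first share was 0% and the second 2.01%, so a count of 0 members reads against a background that is itself near 0. With the replicate number as a block, again none of the 31 was called or had an unadjusted p under 0.05, against 0.00598% and 4.98% of all genes. An empirical null, in which z-scores are divided by their observed width, called 0.156% of all genes and none of the 31. That width was 0.731 in the fit with genotype alone and 0.996 with the block. The z-scores of the fit with genotype alone were thus narrower than a standard normal, and its unadjusted p-values tended to be large.

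The cholesterol genes lay close to equality between the genotypes. TG means were between 92.3% and 109% of WT means, and log2 fold changes ran from -0.11 for *Npc1* to 0.13 for *Dhcr7* with SE between 0.069 and 0.16. The median of the 31 was -0.016, against -0.0037 over all tested genes. In TG 18 of the 31 genes were lower and 13 higher, against 51.4% of all genes lower. Without TG-3 the median turned to 0.018 with 13 of the 31 lower, and without TG-2 or WT-3 it was -0.048 or -0.045 with 21 lower. All 31 lay within 0.15 of 0 on the log2 scale, as did 91.7% of all genes whose mean was 300 or more normalized counts. The 95% interval of every one of the 31 log2 fold changes included 0, with a margin of 0.16 to 0.37 to either side, so a difference smaller than its margin could not be told from none. Blocked intervals had margins between 0.12 and 0.27 and also included 0 for all 31.

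**Figure D1:**
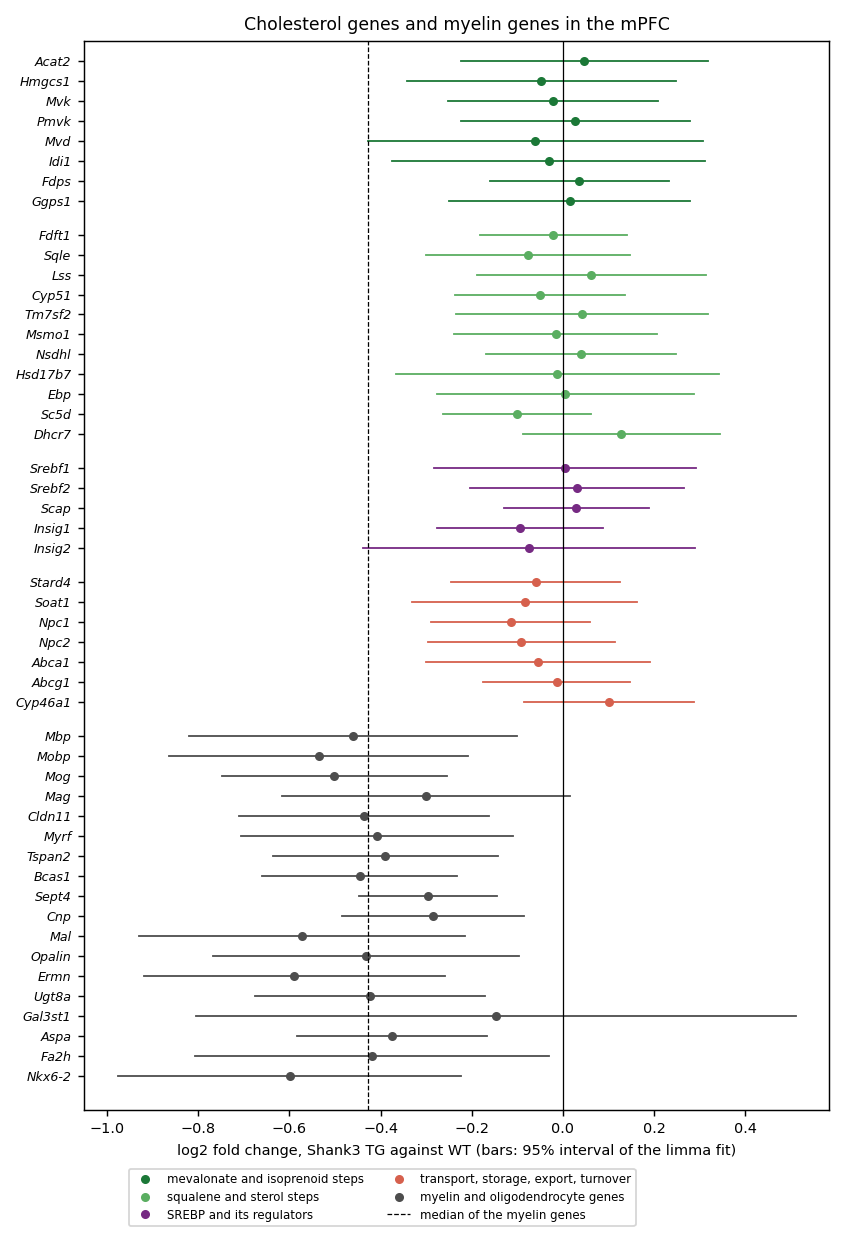
Log2 fold change of Shank3 TG against WT (horizontal axis) for the 31 cholesterol genes, coloured by role, and 18 myelin and oligodendrocyte genes (grey); points are limma estimates from 3 libraries per genotype and bars their 95% intervals. All cholesterol bars cross 0, and the dashed line marks the median of the myelin genes at -0.43.

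The 3 libraries of TG all lay below the 3 of WT for 2 cholesterol genes, *Sc5d* and *Npc1*, and all above for none, against 3.12% and 2.91% of all genes. By replicate number, 8 of the 31 genes were lower in TG than in WT at each of the 3 numbers, against 13.2% of all genes, and 2 were higher at each, *Dhcr7* and *Fdps*, against 11.6%. The 8 were *Hmgcs1*, *Sqle*, *Cyp51*, *Sc5d*, *Insig1*, *Stard4*, *Npc1* and *Npc2*.

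The libraries numbered 3 stood apart from those numbered 1 and 2 in both genotypes: over all genes, the deviations of TG-3 and WT-3 from their genotype means correlated at 0.616, against 0.302 and 0.332 for the other same-numbered pairs. Of the 31 cholesterol genes, 20 were lower and 4 higher in number 3 than in numbers 1 and 2 in both genotypes, and 72.2% of all genes moved the same way in both. For 21 of these 24 genes the shift was larger than the difference between the genotypes, as it was for 85.6% of all genes that moved the same way. The median absolute shift of the 31 was 0.12 on the log2 scale, against 0.047 for the genotype difference. Over all genes whose mean was 300 or more normalized counts these were 0.14 and 0.049. With both libraries numbered 3 left out, an alternative chosen after seeing the data, 18 of the 31 were again lower, the median was -0.019 and none was called.

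**Figure D2:**
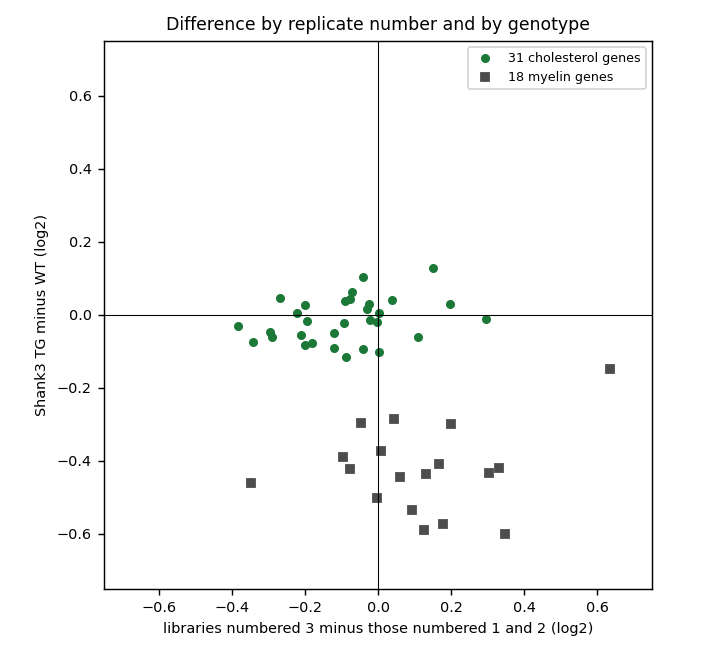
Each point is a gene, placed by its log2 difference between the libraries numbered 3 and those numbered 1 and 2 (horizontal) and between Shank3 TG and WT (vertical), on equal scales. The 31 cholesterol genes (circles) spread along the horizontal axis and stay within 0.15 of 0 on the vertical one, whereas the 18 myelin genes (squares) all lie below 0.

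The enzymes from acetyl-CoA to isoprenoid diphosphates showed no common direction by genotype. In the mevalonate group 4 of 8 genes were lower in TG, and the median log2 fold change was -0.0037, or between -0.064 (without TG-2) and 0.065 (without TG-3) with a library, or both numbered 3, left out. *Hmgcs1*, the HMG-CoA synthase, described here after its values were seen because it had the highest level per length, had 9018, 10114 and 7731 normalized counts in TG and 9270, 10428 and 8044 in WT, in the order of the numbers 1 to 3. Within each number TG was slightly below WT, and the spread between numbers was much wider than the gap. The log2 fold change of *Hmgcs1* was -0.047 ± 0.13 (SE, n = 3 per genotype), with means of 8954 ± 1193 (SD, n = 3) in TG and 9247 ± 1192 (SD, n = 3) in WT. *Fdps*, the farnesyl diphosphate synthase, had 1053, 1181 and 1027 normalized counts in TG and 1049, 1099 and 1027 in WT. TG-2 was above every WT library, and the other TG libraries lay within the WT range.

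The other 6 genes of this group had log2 fold changes between -0.060 and 0.047. *Acat2*, the cytosolic thiolase that joins acetyl-CoA units, and *Pmvk*, the phosphomevalonate kinase, were nearest the upper end at 0.047 and 0.028, and *Mvd*, the decarboxylase, was at the lower end. *Mvd* had the widest spread in WT of the group, with a coefficient of variation of 20.4%. *Mvk*, the first mevalonate kinase, *Idi1*, the isomerase, and *Ggps1*, which makes the geranylgeranyl group used to anchor proteins in membranes, lay between. Reads of *Acat2* and *Fdps* can be shared with near-identical copies elsewhere in the genome, and Salmon divides such reads by estimate, so both counts are uncertain in level.

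Within this group, libraries of the same number lay close together. The mean log2 deviation of the 8 mevalonate genes from their 6-library means was 0.0034, 0.12 and -0.13 in TG-1, TG-2 and TG-3 and 0.056, 0.097 and -0.15 in WT-1, WT-2 and WT-3. *Idi1* showed it most, at -0.35 in TG-3 and -0.41 in WT-3 relative to the other libraries of the genotype, and *Hmgcs1* was at -0.30 and -0.29. The 10 astrocyte genes read beside them had means of 0.074, 0.059 and -0.12 in TG and 0.11, -0.030 and -0.092 in WT. Their mean was thus also lowest in the libraries numbered 3. The mean of the 10 neuronal genes was highest there, at 0.17 in TG-3 and 0.15 in WT-3. Single genes of both lists went either way. Their log2 shift in number 3, averaged over the genotypes, ran from -0.58 to 0.62 for astrocyte genes and from -0.17 to 0.86 for neuronal genes. The part of these cell types in the levels of the cholesterol genes was not tested.

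**Figure D3:**
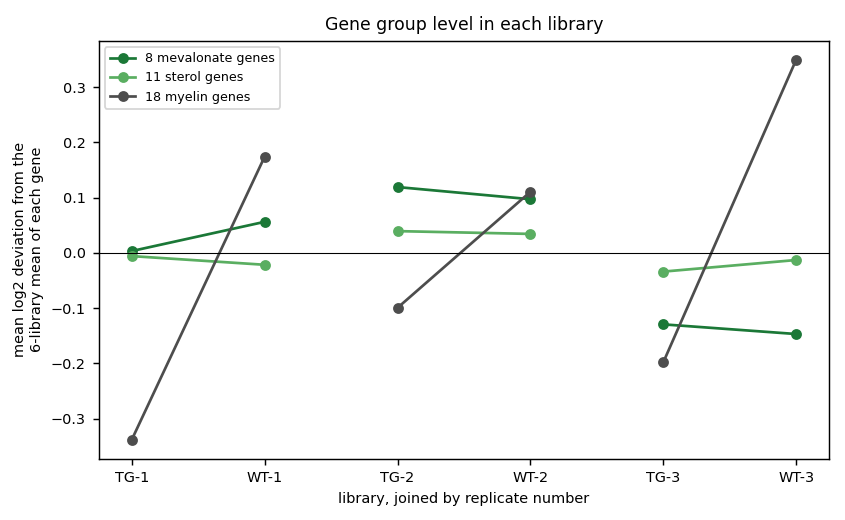
Mean log2 deviation of each gene group from the 6-library mean of its genes (vertical axis) in each library (horizontal axis), with a line joining the TG and WT library of the same number. The lines of the 8 mevalonate genes and 11 sterol genes are nearly flat within a number, and those of the 18 myelin genes rise from TG to WT at every number.

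The enzymes from squalene to cholesterol split evenly too. Of 11 genes, 6 were lower and 5 higher in TG, with a median log2 fold change of -0.013, or between -0.033 (without WT-3) and 0.057 (without TG-3) with libraries left out. *Sc5d*, the sterol desaturase near the end of the route, had 1439, 1521 and 1532 normalized counts in TG and 1600, 1645 and 1573 in WT. All TG libraries were below all WT libraries, with a gap between TG-3 and WT-3 that was small beside the range. The log2 fold change was -0.10 ± 0.070 (SE, n = 3 per genotype; unadjusted p = 0.187 in limma).

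*Dhcr7*, the reductase that yields cholesterol from its immediate precursor, had a higher mean in TG. It had 825.7, 886.3 and 911.8 normalized counts in TG and 770.5, 752.9 and 880.4 in WT. TG was higher than WT at each number, but WT-3 exceeded TG-1, so the groups overlapped. Its log2 fold change of 0.13 ± 0.093 (SE, n = 3 per genotype) was the highest of the 31, with an interval from -0.087 to 0.34 and an unadjusted p of 0.206 in limma.

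*Sqle*, the squalene epoxidase and an oxygen-requiring control point of the route, had 1635, 1816 and 1515 normalized counts in TG and 1762, 1868 and 1605 in WT. The order within a number was the same at each, and number 3 was lowest in both genotypes. *Cyp51*, the lanosterol demethylase, had 2046, 2219 and 1931 in TG and 2151, 2220 and 2038 in WT, and TG-2 and WT-2 were almost equal. The log2 fold changes were -0.077 for *Sqle* and -0.050 for *Cyp51*, and both intervals included 0.

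*Lss*, the cyclase that forms lanosterol, differed in sign between the numbers. It had 1702, 1438 and 1406 normalized counts in TG and 1308, 1590 and 1453 in WT. TG-1 was the highest of the 6 libraries and WT-1 the lowest, so the difference between the genotypes was 0.38 on the log2 scale at number 1 but -0.14 at number 2 and -0.048 at number 3. *Nsdhl*, an X-linked dehydrogenase that helps remove methyl groups from the ring, had 572.0, 598.1 and 564.4 in TG and 521.3, 572.3 and 595.8 in WT, again with the sign turning at number 3. The log2 fold changes were 0.063 for *Lss* and 0.040 for *Nsdhl*.

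The other 5 sterol enzymes lay between -0.021 and 0.042. *Fdft1*, the squalene synthase that commits isoprenoids to sterols, was among the steadiest genes, with means of 2367 ± 110 (SD, n = 3) in TG and 2400 ± 36.4 (SD, n = 3) in WT. *Msmo1* and *Hsd17b7*, partners of *Nsdhl* in removing methyl groups, were at -0.016 and -0.013, *Ebp*, the isomerase, was at 0.0047, and *Tm7sf2*, a sterol reductase, at 0.042. *Hsd17b7* was higher in number 3 in both genotypes, by 0.27 in TG and 0.32 in WT on the log2 scale, against the direction of most enzymes.

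**Figure D4:**
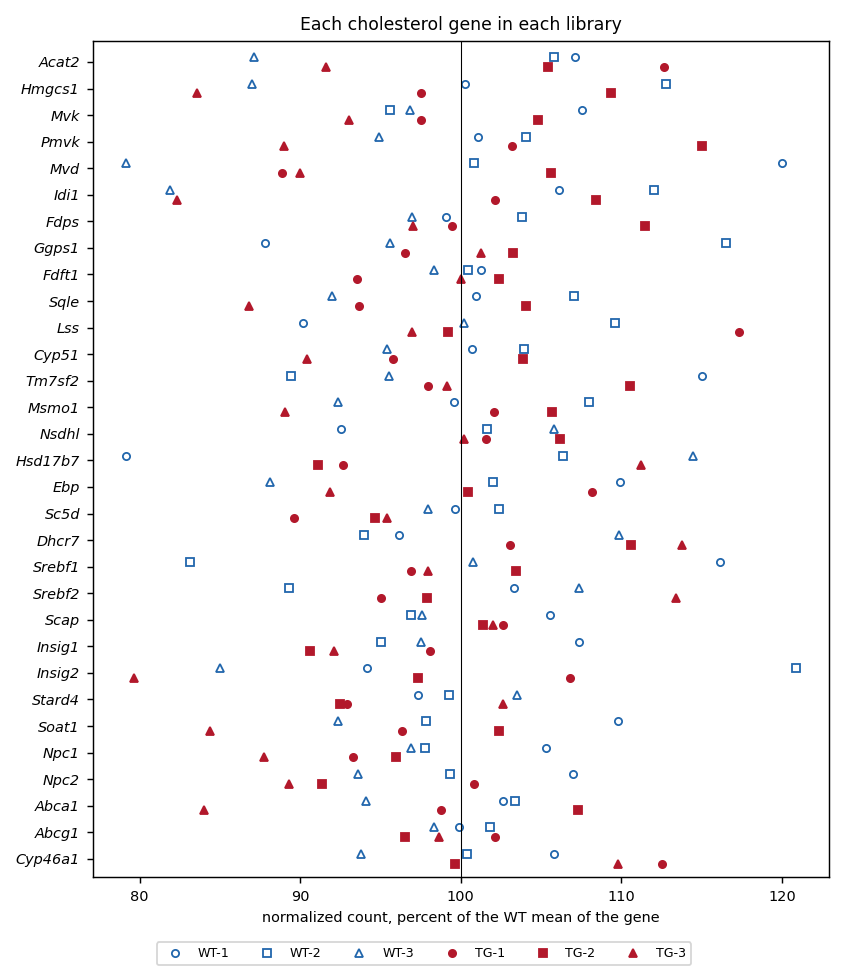
Normalized count of each cholesterol gene in each library as a percent of the WT mean of that gene (horizontal axis); filled symbols are TG, open symbols WT, and circles, squares and triangles stand for the numbers 1, 2 and 3. Filled and open symbols overlap in 29 of the 31 rows, and in the rows of *Sc5d* and *Npc1* all filled symbols are to the left.

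The sterol sensors and the transcription factors they restrain differed little by genotype. Of the 5, 2 had a log2 fold change below 0 and 3 above it, and the median was 0.0042, the value of *Srebf1*, whose mean normalized count was slightly lower in TG. With libraries left out this median ran from -0.049 (without WT-2) to 0.056 (without WT-1). *Insig1*, which retains the SCAP-SREBP complex in the endoplasmic reticulum and is itself an SREBP target, had 2144, 1980 and 2013 normalized counts in TG and 2345, 2077 and 2132 in WT. TG was below WT at each number, yet TG-1 was above WT-2 and WT-3. The log2 fold change was -0.094 ± 0.078 (SE, n = 3 per genotype; unadjusted p = 0.267 in limma).

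*Insig2*, the second retention protein, was one of the most variable of the 31, with 1090, 993.1 and 812.4 normalized counts in TG and 960.3, 1233 and 867.3 in WT. Its sign differed between numbers, and its log2 fold change of -0.075 had an interval from -0.44 to 0.29. *Scap*, the escort of SREBP to the Golgi, had 2564, 2532 and 2548 in TG and 2636, 2421 and 2438 in WT. The TG libraries of *Scap* had a coefficient of variation of 0.62%, and they fell inside the WT range.

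*Srebf2*, which encodes the SREBP that mainly drives sterol genes, had means of 5942 ± 576 (SD, n = 3) in TG and 5820 ± 552 (SD, n = 3) in WT. *Srebf1*, more tied to fatty acid synthesis, had 994.3 ± 35.1 (SD, n = 3) in TG and 1000 ± 165 (SD, n = 3) in WT. Both log2 fold changes were near 0, at 0.030 and 0.0042, and for *Srebf1* the sign differed between the log2 scale and the means. *Srebf2* was higher in the libraries numbered 3 in both genotypes, where most synthesis enzymes were lower.

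Among the genes that move, store, export and dispose of cholesterol, 6 of 7 were lower in TG and the median log2 fold change was -0.060, or between -0.099 (without WT-3) and -0.010 (without TG-3) with libraries left out. None of the 7 passed the test. *Npc1*, the late endosomal membrane protein that releases cholesterol taken up from lipoproteins or membranes, had 1775, 1826 and 1670 normalized counts in TG and 2004, 1861 and 1844 in WT. All TG libraries were below all WT libraries, the nearest being TG-2 and WT-3. Its log2 fold change of -0.11 ± 0.075 (SE, n = 3 per genotype) was the lowest of the 31, with an interval from -0.29 to 0.059 and an unadjusted p of 0.166 in limma, or 0.0882 with the block.

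*Npc2*, the soluble lysosomal partner that hands cholesterol to *Npc1*'s product, had 1160, 1051 and 1027 normalized counts in TG and 1231, 1142 and 1077 in WT. TG was lower at each number, with TG-1 above WT-2 and WT-3, and the log2 fold change was -0.091 ± 0.088 (SE, n = 3 per genotype). *Soat1*, which esterifies cholesterol for storage, had 913.7, 970.6 and 800.2 in TG and 1041, 928.0 and 875.6 in WT, with TG higher at number 2 only. *Stard4*, a soluble sterol carrier, had 947.6, 943.6 and 1047 in TG and 992.6, 1013 and 1056 in WT. Both genes overlapped between the genotypes, and the log2 fold changes were -0.084 for *Soat1* and -0.060 for *Stard4*.

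*Abca1*, an exporter which loads cholesterol onto apolipoproteins, had 1125, 1222 and 956.8 normalized counts in TG and 1169, 1178 and 1072 in WT. TG-2 was the highest and TG-3 the lowest of the 6 libraries, so TG enclosed WT. *Abcg1*, a second exporter, had means of 1379 ± 39.3 (SD, n = 3) in TG and 1391 ± 24.3 (SD, n = 3) in WT, with a log2 fold change of -0.013.

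*Cyp46a1*, the neuronal hydroxylase that turns cholesterol into a form able to leave the brain, was the one handling gene with a higher mean in TG. It had 6586, 5830 and 6427 normalized counts in TG and 6192, 5874 and 5490 in WT. TG-2 lay below WT-1 and WT-2, so the groups overlapped, and the difference was largest at number 3. The log2 fold change was 0.10 ± 0.080 (SE, n = 3 per genotype; unadjusted p = 0.242 in limma).

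Levels between genes were compared as normalized counts per kilobase of annotated exon in WT. *Hmgcs1* at 2013 ± 260 (SD, n = 3) and *Cyp46a1* at 1780 ± 107 (SD, n = 3) led the 31 genes and overlapped each other. *Srebf2* at 810 and *Insig1* at 706 followed, and *Fdft1* at 568 was the highest of the squalene and sterol enzymes. *Soat1* was lowest at 96.8 ± 8.6 (SD, n = 3), a 20.8-fold range in all. Of the 30 pairs of neighbours in this order, 25 overlapped in their WT libraries and 5 did not: *Cyp46a1* above *Srebf2*, *Insig1* above *Fdft1*, *Fdft1* above *Pmvk*, *Fdps* above *Npc2* and *Lss* above *Abca1*. With the longest coding transcript as the length, 8 genes moved by more than 5 ranks, and *Cyp46a1* stood above *Hmgcs1* at 2763 against 2670 normalized counts per kilobase. *Msmo1*, at 1035, then stood above *Fdft1*, at 649.

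**Figure D5:**
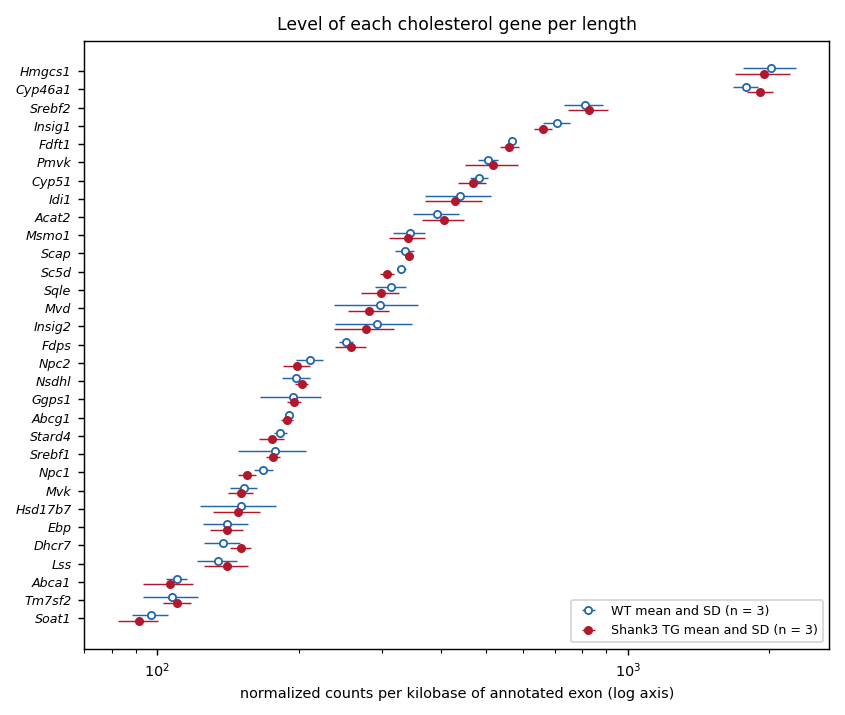
Normalized counts per kilobase of annotated exon (log axis) for the 31 cholesterol genes, ordered by the WT mean; open blue points are WT, filled red points Shank3 TG, and bars the SD of 3 libraries. *Hmgcs1* and *Cyp46a1* stand above the rest in both genotypes, and the TG and WT points of a gene lie close together.

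The myelin genes gave the setting against which the cholesterol genes were read. The list of 18 was written with earlier results of these data known, so its direction is a description. All 18 were lower in TG, the median being -0.43 on the log2 scale, and 15 had all TG libraries below all WT libraries, against 3.12% of all genes. None was called by limma with genotype alone or with the block, 16 had an unadjusted p under 0.05 without the block and 17 with it, against 2.01% and 4.98% of all genes, and the empirical null called 5, against 0.156%. *Mbp*, the most abundant myelin gene here, had 34146, 43598 and 29865 normalized counts in TG and 53914, 51259 and 41952 in WT. TG-2 was above WT-3 for this gene, whereas *Mobp*, another structural myelin gene, did not overlap, with 9453 to 13572 in TG and 14760 to 18216 in WT. In bulk tissue, fewer oligodendrocytes and less RNA per oligodendrocyte cannot be told apart.

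Set side by side, the summed normalized counts of the 18 myelin genes were 66155 to 85525 in TG and 97261 to 101719 in WT, 73.5% of WT. Those of the 31 cholesterol genes were 53546 to 57127 in TG and 53296 to 57325 in WT, 99.3% of WT. The 19 synthesis enzymes alone summed to 27294 to 31706 in TG and 27821 to 32155 in WT. No difference between the lists was tested, since the myelin genes were chosen with their fall known. The lower bounds of the 95% intervals of the cholesterol genes reached -0.44 for *Insig2* and -0.43 for *Mvd* in the fit without the block, and -0.33, for *Mvd*, with it. The myelin median ran from -0.50 to -0.33 when a library, or both libraries numbered 3, were left out.

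The medians of both lists were also read at each number. At number 1 the median TG minus WT difference was -0.054 for the 31 cholesterol genes and -0.54 for the myelin genes. At number 2, where the myelin difference was smallest, the medians were -0.011 and -0.22, and at number 3 they were -0.041 and -0.59. On the mean log2 scale, the libraries numbered 3 moved the lists apart in WT, where the cholesterol genes were lowest, at -0.054, and the myelin genes highest, at 0.35. In summed normalized counts the myelin genes were instead lowest in WT-3, at 97261 against 101719 in WT-1 and 98923 in WT-2.

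Other genes of sterol and lipid metabolism were read from the same fit. Of 23 tested genes for uptake, transport, sensing and oxidation of sterols that are outside the 31, 13 were lower and 10 higher in TG, the median log2 fold change was -0.0046 and none was called. With libraries left out the median of the 23 ran from -0.047 to 0.011. *Cyp27a1*, a sterol hydroxylase, and *Lbr*, a sterol reductase of the nuclear envelope, had the smallest p-values, with log2 fold changes of -0.30 and -0.28 and unadjusted p of 0.103 and 0.106 in limma without the block. The value of *Lbr* rested on number 3, where TG minus WT was -0.72 on the log2 scale, against -0.070 and -0.054 at numbers 1 and 2. It was -0.062 with both libraries numbered 3 left out, and -0.17 without TG-3 or without WT-3 alone. *Lipa*, the lysosomal acid lipase that frees cholesterol from its esters upstream of *Npc1* and *Npc2*, had 487.3, 498.1 and 468.7 normalized counts in TG and 499.3, 530.7 and 574.3 in WT, with no overlap. *Stard3*, a late endosomal sterol carrier, was higher without overlap, at 747.9 to 774.3 in TG and 663.5 to 726.7 in WT. Neither passed the test, with log2 fold changes of -0.14 ± 0.092 and 0.12 ± 0.080 (SE, n = 3 per genotype). With libraries left out *Lipa* ran from -0.19 (without WT-1) to -0.063 (without both numbered 3), and *Stard3* from 0.082 to 0.15.

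The fatty acid genes that SREBP proteins also control were read next to them. All 11 had a negative log2 fold change, from -0.18 to -0.0036 with a median of -0.065, and none was called. *Elovl6*, a fatty acid elongase, *Scd2*, the main brain desaturase, and *Fasn*, the fatty acid synthase, had the smallest p-values in the fit without the block, at log2 fold changes of -0.14, -0.099 and -0.078. With libraries left out *Elovl6* ran from -0.21 (without WT-1) to -0.086 (without WT-2), *Scd2* from -0.14 to -0.074 and *Fasn* from -0.12 (without WT-2) to -0.029 (without WT-1). With the block the smallest was that of *Acaca*, an acetyl-CoA carboxylase named after its values were seen, with an unadjusted p of 0.0376 and an adjusted p of 0.994 in limma. It was lower in TG at each number, with log2 differences of -0.015, -0.36 and -0.16, and its log2 fold change of -0.18 ran from -0.37 to 0.011 with libraries left out. *Scd2* had 35078 to 37682 normalized counts in TG and 37024 to 40190 in WT, with TG-2 inside the WT range. At number 2 the median of the 11 was 0.025, the opposite sign to numbers 1 and 3 at -0.13 and -0.10, and with a library left out the median of the 11 ran from -0.090 to 0.0096.

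Marker genes of the other cell types in the tissue, leptomeningeal genes apart, had medians near 0. Medians of the log2 fold change were 0.011 for 10 astrocyte genes, 0.037 for 10 neuronal genes, -0.033 for 5 tested oligodendrocyte precursor genes, -0.056 for 7 microglial genes and 0.040 for 7 endothelial genes. With libraries left out each of these medians changed sign. In the same order they ran from -0.051 to 0.067, -0.015 to 0.10, -0.088 to 0.030, -0.096 to 0.076 and -0.10 to 0.10. The 8 leptomeningeal genes were all higher in TG, with a median of 0.24 (0.16 to 0.29 with libraries left out) and none called. They summed to 4691 to 5422 normalized counts in TG and 4050 to 4590 in WT. Of the 8, 4 had all TG libraries above all WT libraries, against 2.91% of all genes. An unadjusted p under 0.05 in limma was found for 2 of the 8 without the block and 5 with it, against 2.01% and 4.98% of all genes. No gene of these lists was at 0 in any library. The part of these cell types in the values of the cholesterol genes was not tested.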

How the data were processed

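Stranded mRNA libraries of mPFC were quantified by the authors with Salmon 0.9.1 on GRCm38, imported with tximport and normalized with DESeq2 1.19.11 in R 3.6.0 (tool versions from the submitters' processing notes). The deposited values are a signal, normalized read counts that are not whole numbers. No more than 23% of values from 0 to 20 were within 0.02 of a whole multiple of one step, so reads were not recovered and no counting interval was given. The library sums given are of counts already divided by size factors, so they do not measure sequencing depth. Only 3 libraries per genotype limit the precision.

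Gene names, positions and exon lengths came from GENCODE M21, in which 18231 of 18254 genes were found. In R 4.3.3, limma 3.58.1 was fitted to log2(normalized count + 1) for genes with a mean of at least 5, with genotype alone and a mean-variance trend. Fold changes are on that scale, which understates the change of low genes. Two-sided tests were adjusted by Benjamini-Hochberg over 16714 genes and a threshold of 0.05. The scripts were tested on simulated data. The replicate numbers were taken as pairing the libraries, since the deviations of same-numbered libraries correlated at 0.302, 0.332 and 0.616 across genes, against at most 0.266 for other pairs. Libraries are separate pools of mice.

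The 31 genes, the other lists and the tests were chosen with earlier results of these data known. Counts in each library are given for 2 genes without overlap between the genotypes and for those with the smallest p-values, 16 in all, and for *Hmgcs1*. Other genes are named if they are among the 5 most abundant myelin genes or, in the lists of other sterol and fatty acid genes, if they do not overlap or have the 3 smallest p-values. Motifs were searched in the RefSeq promoter table for GRCm38.p6. Alternatives were other pseudocounts, filters, scalings, limma options, a replicate block, a term for the libraries numbered 3, an empirical null, each library left out, another gene length and shorter motif letters.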

Additional observations from a re-analysis of the deposited data

How the results depend on the processing

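None of the 31 cholesterol genes was called under any of the 18 alternatives, with a lowest adjusted p of 0.717. The count of called genes, 0 in the main fit, was 1 with the robust option, 1 with the replicate block and 1 with a term for the libraries numbered 3, each time *Shank3*, and 26 with the empirical null. Leaving out libraries gave 0 to 1. The block changed no other call. Leaving out 1 library, or both numbered 3, gave medians from -0.048 (without TG-2) to 0.018 (without TG-3) for the 31 genes and from -0.048 to 0.057 for the 19 synthesis enzymes, and between 13 and 21 genes lower in TG. The sign of these medians therefore rests on single libraries, TG-3 and, for the enzymes, also WT-2. The shorter motif letters gave 3 genes in place of 1.

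Of 558 recomputed log2 fold changes 516 kept their sign and 42 changed it, all with libraries left out, in 20 genes. Their ranges were -0.050 to 0.13 for *Acat2*, -0.14 to 0.055 for *Hmgcs1*, -0.068 to 0.031 for *Mvk*, -0.060 to 0.13 for *Pmvk*, -0.22 to 0.082 for *Mvd*, -0.17 to 0.087 for *Idi1*, -0.025 to 0.076 for *Fdps*, -0.074 to 0.13 for *Ggps1*, -0.048 to 0.017 for *Fdft1*, -0.024 to 0.13 for *Lss*, -0.034 to 0.15 for *Tm7sf2*, -0.072 to 0.058 for *Msmo1*, -0.015 to 0.099 for *Nsdhl*, -0.17 to 0.093 for *Hsd17b7*, -0.083 to 0.076 for *Ebp*, -0.12 to 0.12 for *Srebf1*, -0.049 to 0.084 for *Srebf2*, -0.18 to 0.070 for *Insig2*, -0.13 to 0.043 for *Abca1* and -0.035 to 0.0054 for *Abcg1*. The other 11 kept their sign, with ranges of -0.14 to -0.077 for *Npc1*, -0.13 to -0.073 for *Sc5d*, -0.13 to -0.042 for *Insig1*, -0.14 to -0.041 for *Npc2*, -0.15 to -0.015 for *Sqle*, -0.10 to -0.0029 for *Cyp51*, -0.15 to -0.0061 for *Soat1*, -0.11 to -0.034 for *Stard4*, 0.085 to 0.20 for *Dhcr7*, 0.039 to 0.15 for *Cyp46a1* and 0.0071 to 0.069 for *Scap*. *Sqle*, *Cyp51* and *Soat1* were nearest 0 without TG-3. The level per kilobase moved by more than 1 SD for 25 genes with the other length. The margins of the 95% intervals, 0.16 to 0.37 on the log2 scale without the block and 0.12 to 0.27 with it, limit what could be detected.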
